A study of Oryctolagus cuniculus with 8 samples.

Results

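The genes examined here take part in sensing sugar inside the cell, in the breakdown of fructose, and in the side routes that glucose can enter when it is plentiful. The list holds 9 genes, TXNIP, ARRDC4, MLXIPL, KHK, SLC2A5, SORD, AKR1B1, GFPT1 and GLO1, and its members were picked by gene symbol in an expression table of rabbit retina with 25666 rows. A row was found for 6 of them. No row carried the symbols MLXIPL, SLC2A5 or GLO1, and these 3 genes are not analysed here. The question put to the 6 measured genes was whether their level in the retina differed between rabbits that ate sucrose for months and rabbits that did not.

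Sucrose is split in the gut into glucose and fructose. Inside cells, a rise in glucose phosphates is sensed by the transcription factors MondoA and ChREBP (the product of MLXIPL), which switch on TXNIP and ARRDC4, arrestin-like proteins that hold back glucose uptake. Fructose enters through the transporter SLC2A5 and is phosphorylated by KHK, and cells can also make it themselves by the polyol pathway, in which AKR1B1 reduces glucose to sorbitol and SORD oxidizes sorbitol to fructose. GFPT1 sends fructose 6-phosphate into the hexosamine pathway, and GLO1 removes methylglyoxal, a reactive by-product of glycolysis. In the retina, glucose taken up across the pigment epithelium feeds the photoreceptors, and the polyol and hexosamine routes are known from work on diabetic eye disease.

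All rabbits were wild-type male Chinchilla rabbits, a pigmented breed, 12 to 16 weeks old at the start and about 10 months old after 6 months of feeding. The normal diet (ND) was standard chow. The high-fat diet (HFD) was the same chow with 10% lard and 0.5% cholesterol, the high-sucrose diet (HSD) had 40% sucrose added, and the high-fat plus high-sucrose diet (HFSD) had 35% sucrose besides 10% lard and 0.5% cholesterol. RNA of whole dissected retinas was sequenced, with 2 retinas for each diet, so 4 retinas came from sucrose diets (HSD and HFSD) and 4 from diets without added sucrose (ND and HFD). The labels do not say whether the 2 retinas of a diet came from separate rabbits, so the p-values measure only the spread between these retinas. The sucrose content differed between HSD and HFSD, and the cholesterol was given only together with lard.

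Levels are given in FPKM, fragments scaled to the length of the gene and to the depth of the library. The fragment totals by which the values were divided ran from 15764577 to 22785832 per library, and any 2 libraries had a correlation of log2 levels of at least 0.962 across genes. ND replicate 1 stood apart in immediate early genes such as FOS and EGR1, whose summed level was 2049 FPKM against 67.7 to 693 in the other 7 retinas. HSD replicate 2 held skeletal muscle RNA, with a summed level of 539 FPKM over 9 muscle genes against 5.65 to 8.45 elsewhere. Several results that turn on either library are given with and without it, and others as a range over the alternative settings.

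None of the 6 measured genes passed the test for a difference between the sucrose diets and the diets without sucrose (limma on log2(FPKM + 1), Benjamini-Hochberg adjustment over 12204 genes). The share of all genes tested that passed was 0.344%. The intervals of GFPT1, higher with sucrose by 0.33 on the log2 scale, and KHK, lower by a log2 difference of -0.26, did not include 0 before adjustment, so 2 of 6 had an unadjusted p under 0.05, where 18.3% of all genes did. The same test on the recovered fragment counts (limma voom) also called 0 of the 6. Of the 6 genes, 3 were higher with sucrose and 3 lower, and the median size of the difference, whichever its sign, was 0.24 against 0.14 for all genes tested.

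**Figure D1:**
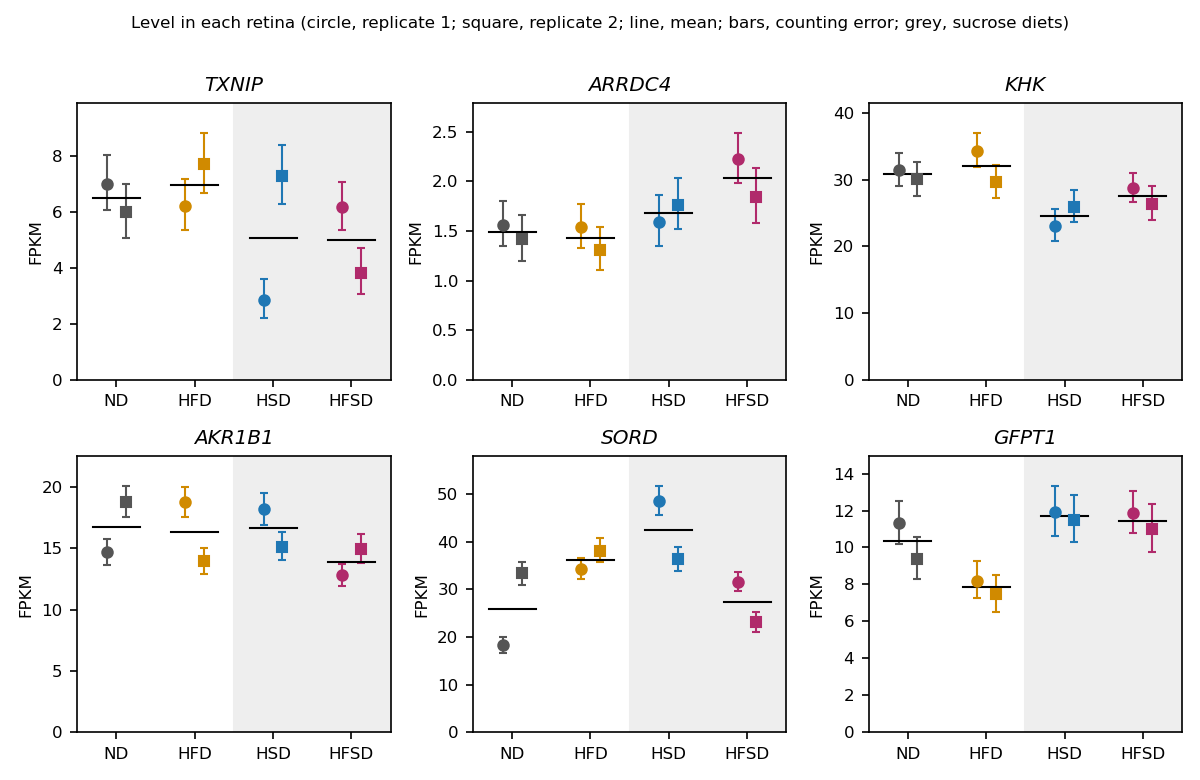
Level of each measured gene in FPKM (vertical axis, from 0) in the 2 retinas of each diet (horizontal axis). Points are retinas with 95% counting intervals, lines are diet means and the grey field marks the sucrose diets; TXNIP scatters from 2.84 to 7.28 FPKM within HSD, whereas KHK in the sucrose diets lies below 29.7 FPKM, the lowest value without sucrose.

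TXNIP, an arrestin-like protein that binds thioredoxin and slows glucose uptake, is among the genes best known to respond to glucose. Its level was 7.01 and 5.98 FPKM in ND, 6.22 and 7.70 FPKM in HFD, 2.84 and 7.28 FPKM in HSD, and 6.16 and 3.83 FPKM in HFSD. The lowest values were those of 1 retina in each sucrose diet, HSD replicate 1 and HFSD replicate 2, while the other retina of each of those diets lay within the range of the retinas without sucrose.

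The scatter of TXNIP within the sucrose diets was larger than counting error. HSD replicate 1 rested on 66 fragments, with a 95% Poisson interval of 2.20 to 3.61 FPKM, and HSD replicate 2 on 185 fragments, with an interval of 6.27 to 8.40 FPKM. These intervals cover counting error only. The HSD retinas differed 2.56-fold, more than the HSD retinas did for 97.1% of the genes tested, and the HFSD retinas differed 1.61-fold, more than for 92.8%. In ND and HFD the folds between retinas were 1.17 and 1.24.

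The means for TXNIP were 6.72 ± 0.783 FPKM (SD, n = 4) without sucrose and 5.03 ± 2.05 FPKM with sucrose. The difference on the log2 scale was -0.42 (SE 0.253, 95% interval -1.01 to 0.17, limma adjusted p = 0.405), so it was not larger than the spread. It ran from -0.14 without HSD replicate 1 to -0.70 without HSD replicate 2.

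ARRDC4, the closest relative of TXNIP and likewise a target of MondoA, had the lowest level of the 6 genes, above that of only 8.36% of the genes tested. Its level was 1.56 and 1.42 FPKM in ND, 1.539 and 1.31 FPKM in HFD, 1.59 and 1.76 FPKM in HSD, and 2.23 and 1.84 FPKM in HFSD. All 4 retinas with sucrose were above all 4 without, as they were for 6.39% of all genes tested. The gap between the groups was narrow, since ND replicate 1 at 1.56 FPKM (95% counting interval 1.35 to 1.80) and HSD replicate 1 at 1.59 FPKM (1.35 to 1.87) agree within sampling noise. The difference was 0.21 on the log2 scale (SE 0.126, 95% interval -0.08 to 0.51, limma adjusted p = 0.397). It was 0.39 with limma voom (adjusted p = 0.209) and 0.32 with a pseudocount of 0.1 FPKM.

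TXNIP and ARRDC4 thus lay on opposite sides of 0, with intervals that both included 0. The ratio of TXNIP to ARRDC4 was 4.04 to 5.86 in the 4 retinas without sucrose. With sucrose it was 4.13 in HSD replicate 2, inside that range, and 1.78, 2.77 and 2.08 in HSD replicate 1, HFSD replicate 1 and HFSD replicate 2, below it.

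Of 9 further alpha-arrestin and thioredoxin genes, 5 had a row and 4 were tested, and 0 passed the test. ARRDC1, with a log2 difference of 0.01 (adjusted p = 0.963), and TXNRD2, the mitochondrial thioredoxin reductase, with -0.26 (adjusted p = 0.184), marked the ends of the range. ARRDC3, an adaptor protein of the same arrestin family chosen after its values were seen, was at 36.7 FPKM in HFD replicate 2 and at 14.8 to 21.8 FPKM in the other 7 retinas. NLRP3, the inflammasome receptor that TXNIP can bind, stayed at or below 0.159 FPKM in every library and was not tested.

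The partners and targets of ChREBP and MondoA gave 11 tested genes, of which 0 passed the test, 5 were higher and 6 lower with sucrose. MLXIP, which encodes MondoA, was at 6.19 to 8.79 FPKM without sucrose and at 7.63 to 9.15 FPKM with it. MLX, the shared partner of both factors, was at 21.2 to 26.9 and 19.9 to 23.3 FPKM. PKLR, a pyruvate kinase gene and a well-known ChREBP target in the liver, had a log2 difference of 0.11 (adjusted p = 0.491), which was 0.067 without ND replicate 2.

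THRSP, a regulator of fatty acid synthesis and a ChREBP target in the liver, had the largest difference of any gene in the lists. It was at 1.58 and 0.748 FPKM in ND, 0.995 and 0.363 FPKM in HFD, 3.36 and 2.30 FPKM in HSD, and 2.33 and 1.68 FPKM in HFSD. All sucrose retinas were above all others, yet the difference of 0.85 (SE 0.209, unadjusted p = 0.00438) had an adjusted p of 0.133 by limma. Over 18 alternative settings the difference of THRSP ran from 0.71 to 1.49 and its adjusted p from 0.0853 to 0.332. PNPLA3, a lipase of lipid droplets, was the lowest of this list with -0.21 (adjusted p = 0.242), or -0.13 with libraries scaled to equal sums of FPKM.

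KHK, which commits fructose to breakdown, was expressed above 71.5% of the genes tested. It was at 31.5 and 30.1 FPKM in ND, 34.4 and 29.7 FPKM in HFD, 23.1 and 26.0 FPKM in HSD, and 28.8 and 26.4 FPKM in HFSD. Every retina with sucrose was below every retina without, a pattern that 6.48% of all genes tested showed. The lowest value without sucrose, in HFD replicate 2, and the highest with sucrose, in HFSD replicate 1, had counting intervals that overlapped, 27.3 to 32.2 and 26.7 to 31.0 FPKM.

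The means for KHK were 31.4 ± 2.15 FPKM (SD, n = 4) without sucrose and 26.1 ± 2.33 FPKM with it. The log2 difference was -0.26 (SE 0.0861, 95% interval -0.46 to -0.06, unadjusted p = 0.0176), with a limma adjusted p of 0.194. The difference was -0.18 with libraries scaled to equal sums of FPKM and -0.31 without HFD replicate 2. Over 19 alternative settings the adjusted p ran from 0.114 to 0.465. The retina is a mixture of cell types, and fewer cells of a type that expresses a gene cannot be told apart from less of its RNA per cell.

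Summed markers of 3 cell types also separated the sucrose retinas from the others without overlap. The summed level of 12 pigment epithelium markers was 454 to 763 FPKM without sucrose and 207 to 307 FPKM with it, and 11 of 11 tested markers were lower. None of the 11 passed the test. For 9 Müller cell markers the sums were 3543 to 4775 and 2603 to 2761 FPKM, with 7 of 9 lower, 2 higher and 0 past the test. For 6 cone markers they were 686 to 1014 and 1208 to 1356 FPKM, with 6 of 6 higher and 2 past the test. Of all genes tested, 48.7% were higher with sucrose and 0.344% passed the test. RLBP1 stood in both the pigment epithelium and the Müller cell list. No marker of these 3 lists was at 0 in all libraries. Their part in the differences of KHK and the other genes was not tested.

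KHK passes its product to the aldolases, and TKFC phosphorylates the glyceraldehyde that aldolase releases. Of 12 genes of fructose breakdown, 11 had a row, 9 were tested and 0 passed the test, with 1 higher and 8 lower with sucrose and a median log2 difference of -0.08 against -0.01 over all genes. TKFC, chosen after its values were seen, was at 25.8 and 29.0 FPKM in ND, 25.7 and 27.3 FPKM in HFD, 21.9 and 19.7 FPKM in HSD, and 20.7 and 19.3 FPKM in HFSD. Like KHK, it was lower in all sucrose retinas than in any other, with a log2 difference of -0.39 (SE 0.0828, limma adjusted p = 0.102). Of 19 alternative settings, 1 gave TKFC an adjusted p under 0.05, a limma model of 2 groups that left out fat (0.0434). That model called 141 of all genes tested, against 42 in the main model.

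ALDOC, the brain and retina form of aldolase, was the most abundant gene of the list, at 4083 to 6131 FPKM without sucrose and 3227 to 3804 FPKM with it, and had a log2 difference of -0.50 without overlap of the groups (adjusted p = 0.211). HK2, a hexokinase that photoreceptors use, was the only gene of this list on the higher side, with 0.42 (adjusted p = 0.223) and ranges of 57.5 to 95.6 and 78.1 to 119 FPKM.

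Among the sugar transporters, 12 of 15 listed genes had a row and 5 were tested, with 0 passing the test. SLC2A1, the glucose transporter GLUT1 of the pigment epithelium, the vessels and the glia, was at 246 and 297 FPKM in ND, 289 and 303 FPKM in HFD, 206 and 169 FPKM in HSD, and 193 and 211 FPKM in HFSD. No retina with sucrose reached the lowest value without it. The log2 difference was -0.54 (SE 0.106, unadjusted p = 0.00119) and the limma adjusted p was 0.0922. It was under 0.05 in 1 of 19 alternative settings, the model of 2 groups without fat (0.0384).

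The markers of the pigment epithelium, where GLUT1 is abundant, were lower in the same retinas as given above, and their part in the values of SLC2A1 was not tested. SLC2A12, another glucose transporter, had a difference of 0.17 (adjusted p = 0.483). SLC2A2, SLC2A9 and SLC5A1, which carry fructose, urate and glucose in other organs, were at or below 0.298 FPKM in every library.

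The polyol pathway held the gene with the widest difference between diet means among the 6. AKR1B1, aldose reductase, was at 14.7 and 18.8 FPKM in ND, 18.7 and 14.0 FPKM in HFD, 18.2 and 15.1 FPKM in HSD, and 12.8 and 14.9 FPKM in HFSD. The retinas with and without sucrose overlapped. Both HFSD retinas were below both HSD retinas, but the gap was within counting error. The 95% counting intervals of HSD replicate 2 and HFSD replicate 2 were 14.0 to 16.3 and 13.8 to 16.2 FPKM. The sucrose difference of -0.11 (SE 0.134, 95% interval -0.42 to 0.21, limma adjusted p = 0.696) was within the spread, and over the alternative settings it ran from -0.21 to -0.0068.

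SORD, sorbitol dehydrogenase, had the highest mean level of the 6 genes, 33.0 FPKM. It was at 18.3 and 33.4 FPKM in ND, 34.4 and 38.2 FPKM in HFD, 48.6 and 36.4 FPKM in HSD, and 31.6 and 23.1 FPKM in HFSD. Without added fat, both sucrose retinas were above both retinas on chow, and with added fat, both sucrose retinas were below both others. This crossing was shown by 1.69% of all genes tested.

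**Figure D2:**
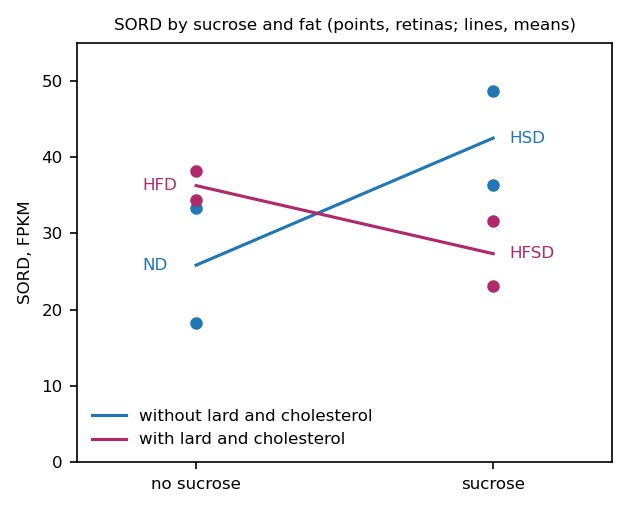
SORD level in FPKM (vertical axis, from 0) without and with sucrose (horizontal axis), for the diets without lard and cholesterol (ND and HSD) and with them (HFD and HFSD). Points are single retinas and lines join diet means, from 25.8 to 42.5 FPKM without fat and from 36.3 to 27.3 FPKM with it.

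Averaged over fat, SORD differed by 0.17 with sucrose (SE 0.202, 95% interval -0.31 to 0.64, limma adjusted p = 0.687). The interaction of fat and sucrose was -1.15 on the log2 scale (SE 0.403, 95% interval -2.09 to -0.21, unadjusted p = 0.0232) and did not pass the test (adjusted p = 0.999). Of the 6 genes, SORD was the 1 with an unadjusted p under 0.05 for the interaction, where 3.74% of all genes were, and 0 of 6 passed after adjustment, where 0.00819% did. Limma voom called 0 of the 6 as well.

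ND replicate 1 held the lowest SORD value, 18.3 FPKM, and it decided the direction of the average. Without it the sucrose difference was -0.042 and the interaction -0.73. The ND retinas differed 1.82-fold in SORD, more than for 91.5% of the genes tested, and ND replicate 1 was also the retina with the highest summed level of the immediate early genes, of the astrocyte markers (1173 against 253 to 982 FPKM) and of the myelin markers (707 against 45.5 to 474 FPKM). The part of these in the SORD values was not tested.

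The ratio of SORD to AKR1B1 is a ratio of RNA levels and not of activities. The ND retinas had ratios of 1.25 and 1.78, the HFD retinas 1.83 and 2.73, the HSD retinas 2.68 and 2.40, and the HFSD retinas 2.47 and 1.545. Both HFD and both HSD retinas lay above both ND retinas, and HFSD replicate 2 lay between the ND retinas. For HFD the gap was narrow, from 1.78 in ND replicate 2 to 1.83 in HFD replicate 1. How often other ratios show this order was not examined.

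A row named AKR1B10, a close relative of AKR1B1 with overlapping substrates, was 9.72 to 16.7 times as high as AKR1B1 in every library. Reads that fitted several places had been discarded, so the split of reads between such relatives is uncertain, and which of these rabbit genes corresponds to human aldose reductase was not examined. AKR1B10 was at 179 to 293 FPKM without sucrose and 145 to 186 FPKM with it, a log2 difference of -0.51 (SE 0.169, limma adjusted p = 0.193), with overlap through ND replicate 1 at 179 FPKM. Without ND replicate 2, at 293 FPKM, the difference was -0.34.

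Of 13 further polyol and osmolyte genes, 8 had a row, 6 were tested and 0 passed the test. NFAT5, the transcription factor that raises aldose reductase and osmolyte transporters under osmotic stress, had the largest difference upward, 0.45 (SE 0.151, adjusted p = 0.197). Its values were 17.2 and 15.3 FPKM in ND, 7.73 and 13.2 FPKM in HFD, 19.8 and 18.7 FPKM in HSD, and 16.9 and 16.6 FPKM in HFSD, and the lowest values were those of the HFD retinas. SLC6A6, the taurine transporter, was at 301 to 419 FPKM without sucrose and 260 to 342 FPKM with it.

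GFPT1, the rate-limiting enzyme of the hexosamine pathway, had the lowest unadjusted p of the 6 genes for sucrose. It was at 11.3 and 9.40 FPKM in ND, 8.21 and 7.47 FPKM in HFD, 11.9 and 11.5 FPKM in HSD, and 11.9 and 11.0 FPKM in HFSD. All but 1 of the sucrose retinas were above all others, and the groups overlapped only through ND replicate 1 at 11.3 FPKM, above HFSD replicate 2 at 11.0 FPKM. The 4 sucrose retinas were close together, at 11.6 ± 0.440 FPKM (SD, n = 4), and the others at 9.10 ± 1.67 FPKM.

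The difference of GFPT1 was 0.33 on the log2 scale (SE 0.0937, 95% interval 0.11 to 0.55, unadjusted p = 0.00886) with a limma adjusted p of 0.161. Over the 19 alternative settings its size ran from 0.27 to 0.40 and its adjusted p from 0.108 to 0.371. The level was lowest in HFD, which differed from ND by -0.36 (unadjusted p = 0.0294, adjusted p = 0.998), whereas HSD differed from ND by 0.17 and HFSD by 0.14. Without ND replicate 1 these differences of GFPT1 were -0.24, 0.29 and 0.26, and without ND replicate 2 they were -0.48, 0.047 and 0.014.

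The hexosamine list of 17 further genes gave 11 tested genes, with 6 higher and 5 lower, 0 passing the test and a median log2 difference of 0.01. OGT, which attaches the end product of the pathway to proteins, had 0.29 (adjusted p = 0.320). OGA, which removes it, had 0.09 (adjusted p = 0.698), with a range over the alternative settings of -0.033, without HFD replicate 1, to 0.22. RENBP, which interconverts amino sugars, had -0.54 (adjusted p = 0.228). GFPT2, the second form of the enzyme, was at or below 0.573 FPKM in every library and was not tested.

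For the defence against glyoxals, where GLO1 had no row, 11 of 14 listed genes were tested, 3 were higher and 8 lower with sucrose, and 0 passed the test. GSS, which completes the synthesis of the glutathione that GLO1 needs, was at 18.4 to 22.0 FPKM without sucrose and 14.0 to 16.6 FPKM with it, a log2 difference of -0.40 (SE 0.0945, limma adjusted p = 0.120) without overlap. LDHD, a mitochondrial enzyme for the D-lactate that this route yields, chosen after its values were seen, was at 1.86 to 2.07 and 1.09 to 1.48 FPKM, also without overlap (-0.39, adjusted p = 0.204, and -0.60 with a pseudocount of 0.1 FPKM). AGER, the receptor for glycated proteins, had the largest difference upward, 0.37 (adjusted p = 0.383). FN3K, which repairs glycated proteins and was also chosen after its values were seen, was at 43.2 and 42.5 FPKM in HFSD and at 50.8 to 59.8 FPKM in the other 6 retinas.

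**Figure D3:**
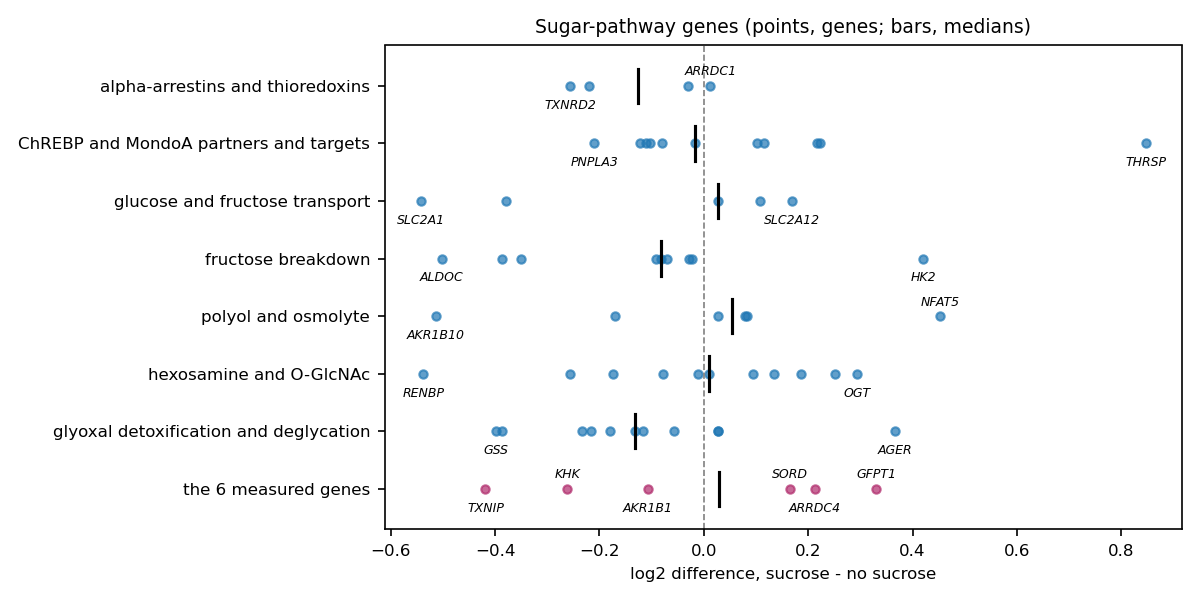
Differences in log2(FPKM + 1) between the sucrose diets and the diets without sucrose (horizontal axis) for the 57 tested genes of 7 sugar-pathway lists and for the 6 measured genes (rows). Each point is a gene and each bar a median; THRSP at 0.85 lies farthest to the right, and SLC2A1 and RENBP at -0.54 farthest to the left.

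Over all 7 lists, 75 of 99 genes had a row and 57 were tested. With sucrose 23 were higher and 34 lower, the median log2 difference was -0.06, and 0 passed the test in limma. At an unadjusted p under 0.05, 3 were higher and 10 lower, together 22.8% of the 57, against the 18.3% of all genes given above. In 2 genes, THRSP and IMPA1, all sucrose retinas were above all others, and in 5 genes, SLC2A1, ALDOC, TKFC, GSS and LDHD, they were below. These are 3.51% and 8.77% of the 57, where the shares of all genes were 6.39% and 6.48%. Single libraries moved other named genes besides PKLR, AKR1B10 and OGA. Without HFD replicate 1 the difference was 0.28 for NFAT5, 0.16 for OGT, 0.14 for AGER and -0.07 for ARRDC1, which changed sign, and without ND replicate 1 it was 0.061 for SLC2A12.

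**Figure D4:**
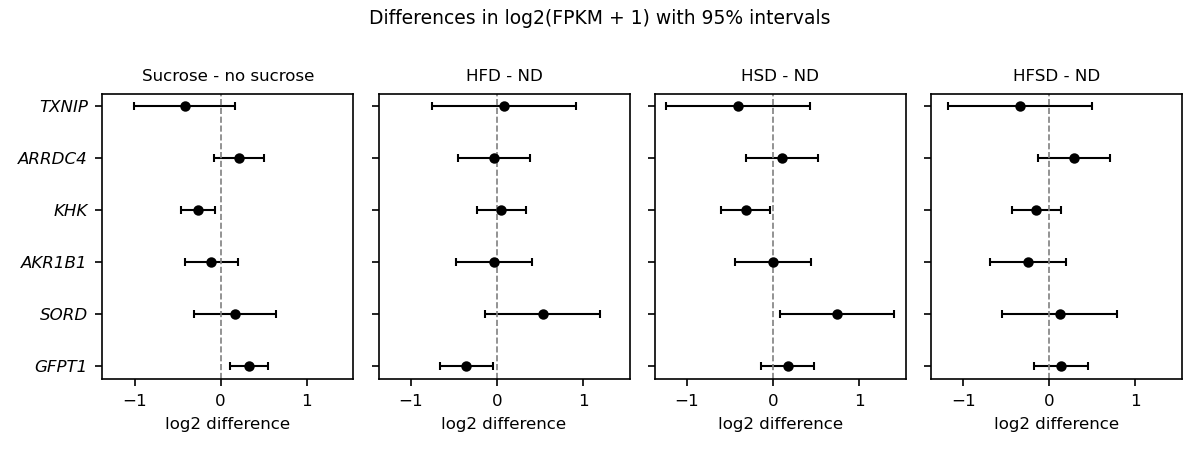
Differences in log2(FPKM + 1) (horizontal axis) of the 6 measured genes (rows) for sucrose against no sucrose and for each diet against ND. Points are estimates from limma and bars 95% intervals before adjustment; SORD in HSD, at 0.74, is the largest estimate, and the intervals are wider in the comparisons of 2 with 2 retinas.

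Each diet was also set against ND, with the same 2 ND retinas in all 3 comparisons. HFD gave 0 of 6 genes past the adjusted threshold, where 0.00819% of all genes passed, and 1 of 6, GFPT1, at an unadjusted p under 0.05, where 4.31% did. HSD gave 0 of 6, where 0.0574% passed, and 2 of 6 before adjustment, SORD at 0.74 (SE 0.285, adjusted p = 0.646) and KHK at -0.32 (SE 0.122, adjusted p = 0.646), where 7.20% did. Without ND replicate 1 the SORD difference in HSD was 0.32, and without ND replicate 2 it was 1.16. HFSD gave 0 of 6, where 0.0164% passed, and 0 of 6 before adjustment, where 8.07% did. Limma voom called 0 of the 6 in each of these comparisons.

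For HFSD the estimates were 0.28 for ARRDC4, 0.14 for GFPT1, 0.12 for SORD, -0.15 for KHK, -0.25 for AKR1B1 and -0.35 for TXNIP, with adjusted p-values from 0.718 to 0.932. Over the alternative settings, single libraries left out among them, they ran from 0.19 to 0.49 for ARRDC4, 0.014 to 0.26 for GFPT1, -0.29 to 0.54 for SORD, -0.21 to -0.094 for KHK, -0.42 to -0.080 for AKR1B1 and -0.63 to -0.061 for TXNIP. Fat against no fat, averaged over sucrose, gave 0 of 6 genes past the adjusted threshold, where 0.00819% of all genes passed, and 0 of 6 before adjustment, where 3.20% did. The estimates for fat lay between -0.19 for GFPT1 and 0.11 for KHK, the latter at 0.056 without HFD replicate 1. Over the alternative settings the fat estimates ran from -0.20 to 0.35 for TXNIP, -0.25 to 0.16 for SORD and -0.24 to -0.041 for AKR1B1. The ranges were -0.26 to -0.13 for GFPT1, 0.024 to 0.12 for ARRDC4 and 0.056 to 0.16 for KHK. TXNIP, at 0.07, moved to 0.35 without HSD replicate 2, and SORD, at -0.04, moved to -0.25 without ND replicate 1.

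A rule without a test, which sets an upper and a lower limit on the mean FPKM of a diet plus 1 over that of ND plus 1, picked 1 of the 6 genes. In HSD this was SORD with a ratio of 1.62, where the rule picked 3.95% of all protein-coding genes, and 1.53% on the upper side alone. In HFD it picked 0 of 6, where it picked 1.76% of all genes, and in HFSD 0 of 6, where it picked 3.43%. The ratio of SORD in HSD was 1.27 without ND replicate 1, 1.39 without HSD replicate 1, 1.85 without HSD replicate 2 and 2.25 without ND replicate 2, so leaving out either of the first 2 took it inside the limits. The ratio of TXNIP in HSD was 0.809, and it was 1.10 without HSD replicate 1 and 0.513, past the lower limit, without HSD replicate 2. In HFSD it was 0.800, and it was 0.956 without HFSD replicate 2 and 0.644, also past that limit, without HFSD replicate 1. SORD in HFD had a ratio of 1.39, which was 1.08 without ND replicate 1 and 1.93, past the upper limit, without ND replicate 2.

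The genes whose log2 levels ran most closely with each of the 6 over the 8 libraries are given as a description, since libraries share diets and depth. They are the 3 highest correlations among all genes tested that have a symbol. A high r and shared high and low libraries follow largely from that choice. PALLD, an actin-binding protein, had a Pearson r of 0.969 with TXNIP and ranged from 1.86 to 2.80 FPKM. Its lowest values were in the retinas where TXNIP was lowest, HSD replicate 1 and HFSD replicate 2. CD37 (r = 0.956), a leukocyte tetraspanin, and ARL6IP6 (r = 0.946) were likewise lowest in those retinas. ARRDC4 ran with MFHAS1 (r = 0.964), FRS3 (r = 0.961) and LAMP5 (r = 0.943). MFHAS1 and FRS3 peaked with ARRDC4 in HFSD replicate 1, at 9.53 and 19.8 FPKM, and LAMP5, a membrane protein of some amacrine and other inhibitory neurons, did so at 42.2 FPKM.

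KHK ran with SIAH2, a ubiquitin ligase (r = 0.959), CUTA (r = 0.951) and GNB2, a G-protein subunit (r = 0.942), all of which peaked in HFD replicate 1. SORD ran with PARP6 (r = 0.946), MVP, the major vault protein (r = 0.930), and CHST2, a sulfotransferase (r = 0.914). As picking by correlation favours, these 3 genes had their lowest value in ND replicate 1 and their highest in HSD replicate 1, like SORD. AKR1B1 ran with HDDC3 (r = 0.961), GLE1 (r = 0.948) and PRRC1 (r = 0.947), and GFPT1 with B3GALT1, a galactosyltransferase (r = 0.987), SLC6A7, the proline transporter (r = 0.971), and ZKSCAN1 (r = 0.970). B3GALT1 was at 3.68 and 3.30 FPKM in HFD, where GFPT1 was lowest, and at 4.61 to 6.62 FPKM in the other retinas.

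The other marker lists give the make-up of the retinas beside these values. Summed rod markers were 36165 to 48148 FPKM without sucrose and 35456 to 39570 FPKM with it, and endothelial markers 133 to 164 and 125 to 163 FPKM. Mural cell markers were at 6.96 to 21.3 and 3.79 to 9.36 FPKM, microglial markers at 46.0 to 67.1 and 41.1 to 48.4 FPKM, and astrocyte markers at 410 to 1173 and 253 to 506 FPKM. Myelin markers were at 95.7 to 707 and 45.5 to 155 FPKM, red blood cell markers at 8.12 to 82.2 and 0.290 to 42.6 FPKM, and lens markers, of which 1 was at 0 in every library, at 3.41 to 8.99 and 2.73 to 13.4 FPKM. In HSD replicate 1, where TXNIP was lowest, the blood sum was 0.290 FPKM and the muscle sum 8.45 FPKM. The part of these cell types in the values of the 6 genes was not tested.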

How the data were processed

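RNA of 8 rabbit retinas, 2 for each diet, was sequenced. The authors checked the reads with FastQC, trimmed their ends, aligned them by TopHat2, kept those with a single position and calculated FPKM per gene with their own R script. The deposited table holds FPKM of each library, although its name speaks of counts. The genome build, the annotation and the tool versions are not given in the sources used here, so no coordinates are stated. All value columns matched a sample (0 left over). Genes were matched by symbol, and rows without a symbol were not searched.

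The test covered the 12204 protein-coding genes that reached 1 FPKM in 2 or more libraries, and all 6 measured genes were among them, so the exact permutation test planned for genes below the filter was not needed. limma 3.58.1 (R 4.3.3) was run on log2(FPKM + 1) with a mean for each of the 4 diets, a mean-variance trend and Benjamini-Hochberg adjustment over all genes tested; an adjusted p under 0.05 was called. Differences on this scale understate those of low genes. The limits of 1.54 and 0.65 for ratios of means come from the methods of the study. Fragment counts were recovered from the FPKM steps (99.99% of values above 0 came out whole, within 0.002 fragments or a rounding share of the value) and gave the 95% exact Poisson intervals and 1 alternative, limma voom. Tables and plots were made with Python 3.11.15, numpy 2.4.6, pandas 2.3.3, scipy 1.17.1 and matplotlib 3.10.9. On simulated data for the sucrose comparison, with 12082 genes, the test called 197 of 200 genes changed by 1 on the log2 scale (98.5%, at a median estimate of 0.91) and 14 unchanged genes. The simulation gave every gene the same spread between retinas and changed only genes with many fragments. Smaller changes, such as those estimated for the 6 genes, were not simulated, so this share is not the power for them.

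The measured genes, the 7 pathway lists and the 13 marker lists were chosen with earlier results of these data known. Named were the measured genes, the 3 genes most correlated with each, and from each pathway list the genes with the largest difference upward and downward; all others were chosen for their role or after their values were seen. The alternatives were the pseudocount, the filter on low values, the model, the scaling, the variance trend, voom, a replicate block and leaving out each library.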

Additional observations from a re-analysis of the deposited data

Results flagged for a closer look

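SORD, sorbitol dehydrogenase, drew attention because sucrose went with opposite differences in the absence and presence of added fat. Both HSD retinas (48.6 and 36.4 FPKM) were above both ND retinas (18.3 and 33.4 FPKM), and both HFSD retinas (31.6 and 23.1 FPKM) were below both HFD retinas (34.4 and 38.2 FPKM). The difference between these effects was tested as the interaction of fat and sucrose in limma. It was -1.15 on the log2 scale (SE 0.403), with an unadjusted p of 0.0232 and an adjusted p of 0.999, so it failed the correction over all genes. The same crossing was seen in 1.69% of all genes tested. The estimate ran from -0.73 without ND replicate 1 to -1.57 without ND replicate 2.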

How the results depend on the processing

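With 2 retinas for each diet, none of the 6 genes passed the adjusted threshold in limma, in any comparison or under any alternative run. In the sucrose comparison the adjusted p ran, over the alternatives, from 0.108 to 0.371 for GFPT1, 0.114 to 0.465 for KHK, 0.209 to 0.660 for ARRDC4, 0.261 to 0.743 for TXNIP, 0.353 to 0.929 for SORD and 0.357 to 0.985 for AKR1B1. Under the filter of 5 FPKM, ARRDC4 dropped out and gave no value. ARRDC4 rested on 145 to 307 fragments per library and TXNIP on 66 to 207.

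The number of all genes called for sucrose, 42, was 8 without a filter on low values, 18 with voom, 72 with additive terms for fat and sucrose, 141 with 2 groups and no term for fat, and 25 with a replicate block. Leaving out single libraries gave 4 without HSD replicate 2, 9 without HFD replicate 2, 13 and 14 without HFSD replicates 2 and 1, 16 without HFD replicate 1, 72 without ND replicate 2 and 82 without ND replicate 1. The cause was not tested. Same-numbered retinas of different diets deviated with correlations of -0.165 to 0.0813 over the genes tested, so no broad shared deviation was seen. A shared step that moved few genes would not show in these correlations. The replicate block changed no call among the 6 genes.

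The sign of some differences turned when a library was left out. SORD was such a gene. For sucrose it ran from -0.042, without ND replicate 1, to 0.37, and for HFSD against ND from -0.29, also without ND replicate 1, through -0.10 without HFSD replicate 1 to 0.54. Against ND, TXNIP in HSD, at -0.41, ran from -0.96 without HSD replicate 2 to 0.15 without HSD replicate 1. For fat against no fat, TXNIP ran from -0.20 to 0.35 and SORD from -0.25 to 0.16. The interaction of fat and sucrose for TXNIP, at -0.02, ran from -0.58 to 0.53. With single libraries left out, differences near 0 crossed it in HFD for TXNIP (-0.050 to 0.22), ARRDC4 (-0.11 to 0.028), KHK (-0.053 to 0.15) and AKR1B1 (-0.24 to 0.16), and in HSD for AKR1B1 (-0.17 to 0.17). Scaling to equal sums of FPKM turned KHK in HFD to -0.0062 and AKR1B1 in HSD to 0.049, and voom turned the latter to 0.032. Among the 6 genes, 0 to 1 passed the limits for ratios of means in HFD, 0 to 2 in HSD and 0 to 1 in HFSD when single libraries were left out.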
